A study of Mus musculus with 8 samples.

Results

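The caspases described here are 7 genes, Casp1, Casp2, Casp4, Casp6, Casp8, Casp9 and Casp12, picked by name from the 27179 genes of the count table as apoptotic and inflammatory caspases. RNA was sequenced from whole primary tumours of 4T1.13 mouse mammary carcinoma cells, 4 of them grown from the 4T1.13-VC line and 4 from the 4T1.13-miR-21-KD line. In each case 100000 cells were placed in the mammary fat pad of female BALB/c mice aged 7 to 8 weeks, and the labels give day 14 for the tumours while the methods give day 12. The miR-21-KD cells carry a lentiviral vector whose transcript holds on to mature miR-21, the VC cells carry the same vector with a scrambled sequence, and both lines also carry mCherry and hygromycin resistance. Each line is a pool of 6 clones, and the 4 tumours of a group come from the same pool. A difference between the pools cannot be told apart from an effect of the miR-21 trap. Whole tumours also hold host cells that do not carry the vector. The comparison asks how the transcripts of these caspases differed between tumours with and without the miR-21 trap. According to the paper, the miR-21-KD tumours had begun to regress when taken, so the stage of growth and the trap cannot be told apart.

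Caspases are proteases that cut after aspartate and are made as inactive zymogens. The initiators Casp8, Casp9 and Casp2 are switched on in large assemblies, the death-inducing signalling complex, the apoptosome and the PIDDosome, and pass the signal to executioners such as Casp6. The inflammatory caspases Casp1 and Casp4, the latter known in mice as caspase-11, act in inflammasomes, where they cut gasdermin D and start pyroptosis, and Casp1 also matures interleukin-1 beta and interleukin-18. They are abundant in macrophages but are also made by epithelial and tumour cells. Control of caspases is largely by cleavage, which RNA does not measure.

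Casp1, Casp4 and Casp12 lie side by side on the same strand, and their promoters are shown because they are close relatives and neighbours. They cover 74518 bases at chr9:5298517-5373034 (GRCm38.p6, plus strand), with gaps of 1567 and 8650 bases and 0 other RefSeq genes between them. The RefSeq windows run from 250 bases before the start to 50 after it, at chr9:5298267-5298566 for Casp1, chr9:5308599-5308898 for Casp4 and chr9:5345226-5345525 for Casp12, and capitals mark matches to a motif. The start is that of the RefSeq window, which for Casp12 lies downstream of the outermost gene start used for the span and the gaps.
Casp1: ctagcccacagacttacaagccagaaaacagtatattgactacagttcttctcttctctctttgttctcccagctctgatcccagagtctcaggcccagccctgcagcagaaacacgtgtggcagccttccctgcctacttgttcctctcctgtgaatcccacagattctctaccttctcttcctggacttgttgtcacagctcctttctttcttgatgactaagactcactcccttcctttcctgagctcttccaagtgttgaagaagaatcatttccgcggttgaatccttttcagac
Casp4: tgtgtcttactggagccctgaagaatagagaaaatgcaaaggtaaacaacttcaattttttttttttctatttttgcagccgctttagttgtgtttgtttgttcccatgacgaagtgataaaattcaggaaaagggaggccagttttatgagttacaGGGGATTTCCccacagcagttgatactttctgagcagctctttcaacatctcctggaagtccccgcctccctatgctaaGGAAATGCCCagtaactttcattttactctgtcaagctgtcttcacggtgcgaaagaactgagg
Casp12: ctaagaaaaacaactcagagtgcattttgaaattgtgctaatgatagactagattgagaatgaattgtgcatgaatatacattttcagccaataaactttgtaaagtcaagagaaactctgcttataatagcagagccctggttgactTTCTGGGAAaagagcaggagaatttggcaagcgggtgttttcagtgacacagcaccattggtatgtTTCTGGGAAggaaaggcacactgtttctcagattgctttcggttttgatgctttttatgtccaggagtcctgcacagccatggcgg
The Casp4 window held the NF-kappaB letters (GGG, 2 bases of any kind, then TTTCC) at 93 and 14 bases before the start, a match found on either strand in 1.62% of 27025 promoters of the same length. The Casp12 window held the GAS letters TTCNNNGAA at 102 and 36 bases before the start, found in 8.47% of promoters. The Casp1 window held neither, nor the ISRE letters (GAAA, 2 bases of any kind, then GAAA, in 3.49% of promoters) or the AP-1 letters TGANTCA (7.93%), on either strand. These matches are descriptions of letters and were not tested as binding sites.

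The vector acts on mature miR-21, which pairs with messages through its seed, so the seed and its match in the caspase messages are given. The mature strand lies at chr11:86584120-86584141 (GRCm38.p6, minus strand), with the seed in capitals.
mmu-miR-21a-5p: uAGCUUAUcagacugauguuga
The site letters ATAAGCT and TAAGCTA, read on the message strand only, were in 0 of the 7 caspase 3′ untranslated regions, which were 88 to 2289 bases long, and in none of their coding parts. The search covered, for each gene, the complete protein-coding transcript with the longest coding part. Other transcripts of these genes were not searched. For all genes, 2082 of 20914 (9.96%) had such a site in the 3′ untranslated region, whose median length was 804 bases.

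All 7 caspases passed the filter on low counts. In miR-21-KD tumours Casp1, Casp12 and Casp8 fell, and the other 4 did not pass the test. The 3 of 7 that fell (42.9%) stand beside 19.5% of the 14382 tested genes called lower, at an adjusted p under 0.05 in edgeR's quasi-likelihood test with Benjamini-Hochberg adjustment. In the other direction 0 of 7 passed, beside 19.6% of tested genes. At an unadjusted p under 0.05, 4 caspases were lower (Casp2 in addition) and 1, Casp4, was higher. DESeq2 called 3 lower and 1 higher, again Casp4. No share of all tested genes is given for the unadjusted and DESeq2 counts. The median log2 fold change was -0.26 over the caspases and -0.01 over all tested genes. The tumours of the groups did not overlap for 4 caspases that were lower in miR-21-KD tumours (Casp1, Casp12, Casp8 and Casp2), beside 18.9% of tested genes, and for 0 that were higher, beside 16.3%. In bulk tumours, fewer cells of a type and less RNA per cell cannot be told apart.

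**Figure D1:**
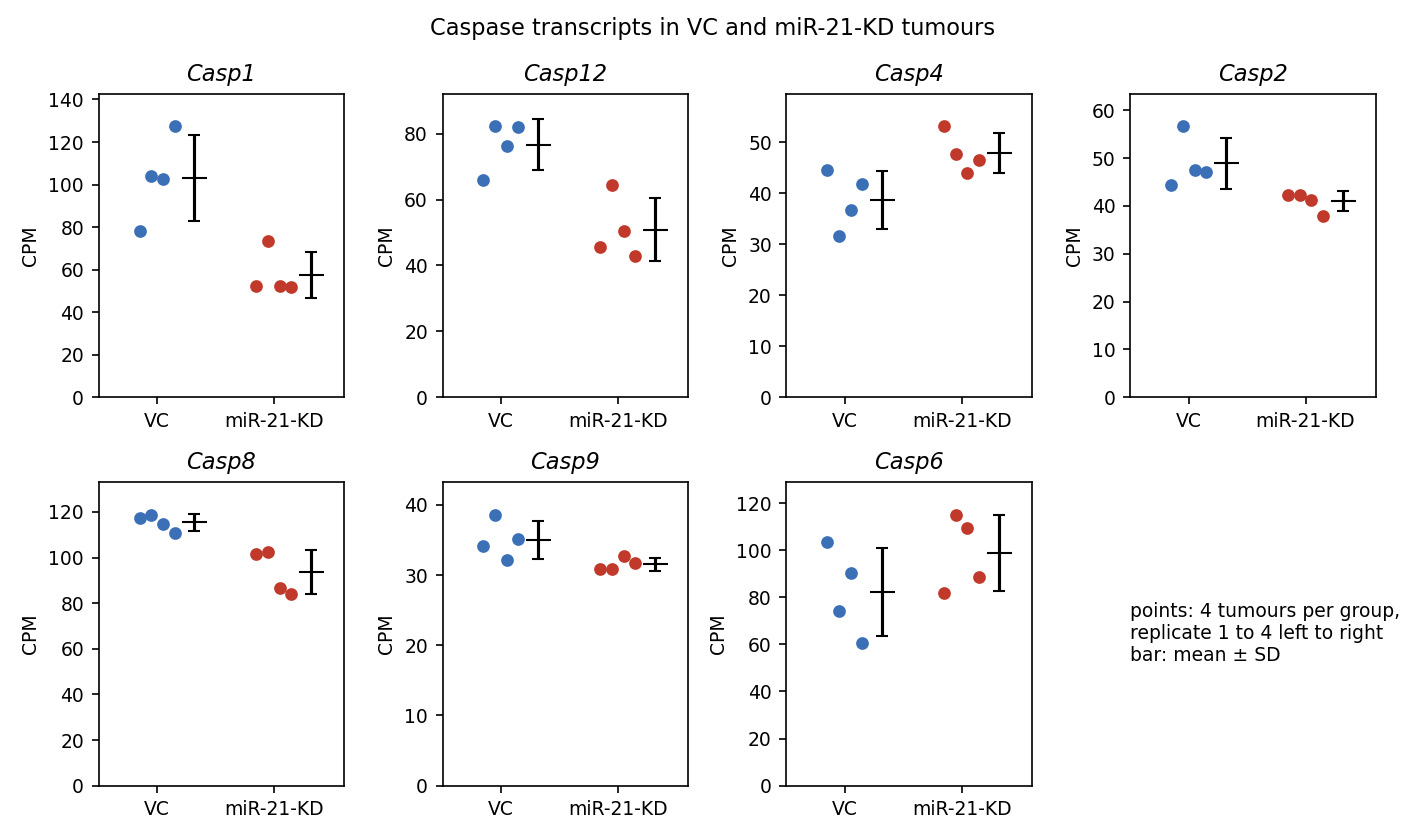
Expression of the 7 caspases in CPM, with a point for each of the 4 VC and 4 miR-21-KD tumours and the mean with SD as a bar. Casp1, Casp12, Casp8 and Casp2 show no overlap between groups, while Casp4, Casp6 and Casp9 do.

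Casp1 (Entrez 12362, chr9:5298517-5307281) showed the largest difference of the 7. Its level was 78.2, 103.9, 102.4 and 127.5 CPM in VC tumours 1 to 4 and 52.2, 73.7, 52.2 and 51.9 CPM in miR-21-KD tumours 1 to 4, where CPM is the count in a library of 1000000 after correction by the trimmed mean of M-values (TMM). Every miR-21-KD tumour was below every VC tumour, with miR-21-KD tumour 2 nearest to the VC range. The VC mean was 103.0 ± 20.1 CPM and the miR-21-KD mean 57.5 ± 10.8 CPM (SD, n = 4). The log2 fold change of -0.84 (SE 0.17, edgeR adjusted p = 0.00974) passed the test without any 1 tumour.

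Casp12 (12364, chr9:5345442-5373034), an enzyme of the endoplasmic reticulum that groups with the inflammatory caspases by sequence, fell as well. It stood at 66.0, 82.3, 76.2 and 82.2 CPM in VC tumours and at 45.8, 64.5, 50.4 and 42.9 CPM in miR-21-KD tumours. The groups did not overlap, although miR-21-KD tumour 2 lay just under VC tumour 1. The log2 fold change was -0.59 (SE 0.14, edgeR adjusted p = 0.0138).

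Casp4 (12363, chr9:5308849-5336791) lies between them on the chromosome and senses cytosolic lipopolysaccharide. Its level was 44.5, 31.6, 36.6 and 41.9 CPM in VC tumours and 53.2, 47.8, 44.1 and 46.6 CPM in miR-21-KD tumours. Only miR-21-KD tumour 3 fell within the VC range, just below VC tumour 1. The log2 fold change of 0.31 (SE 0.12) did not pass the edgeR test (adjusted p = 0.0676). With the replicate number as a block it was 0.32 (SE 0.10, edgeR adjusted p = 0.0404), and without VC tumour 1 it was 0.39 (edgeR adjusted p = 0.0376), both past the threshold.

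Since these neighbours are related, their coding sequences were compared. Casp1 and Casp4 were 63% identical, Casp1 and Casp12 62.8% and Casp4 and Casp12 65%, and the longest exact run shared by any pair of the 7 caspases was 21 bases. Within each tumour, the log2 ratio of Casp4 to Casp1 CPM was -0.81, -1.71, -1.48 and -1.60 in VC tumours and 0.03, -0.62, -0.24 and -0.16 in miR-21-KD tumours. The ratio was higher in all 4 miR-21-KD tumours than in any VC tumour, with a mean difference of 1.15 (exact two-sided permutation p = 0.0286, the smallest that 4 against 4 allows, and 0.0857 adjusted over 3 ratios). Within pairs of the same replicate number the exact sign-flip p was 0.125, the smallest that 4 pairs allow. Without any 1 of the 4 miR-21-KD tumours the exact permutation p was 0.0571, with a difference of 1.06 to 1.28. For Casp12 to Casp1 the ratio went from -0.41 ± 0.17 to -0.18 ± 0.09 (SD, n = 4), a difference of 0.23 (exact two-sided permutation p = 0.0571, adjusted 0.0857, and exact sign-flip p = 0.125 within pairs). Without VC tumour 1 this difference was 0.29 (exact permutation p = 0.0286, unadjusted).

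**Figure D2:**
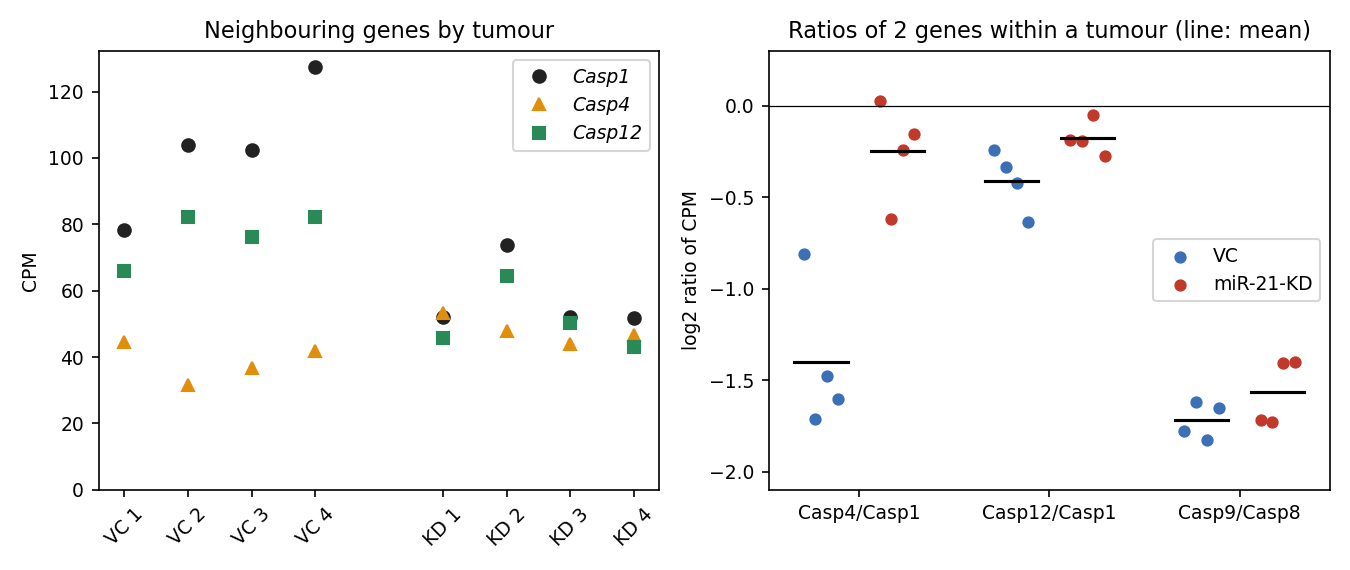
The left panel gives the CPM of Casp1, Casp4 and Casp12 in each tumour, and the right panel the log2 ratios of gene pairs within a tumour, with a line at each group's mean. Casp1 and Casp12 lie lower in the 4 miR-21-KD tumours while Casp4 does not, and the Casp4 to Casp1 ratio does not overlap between groups.

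Casp8 (12370, chr1:58795233-58847503), the initiator that death receptors recruit and a brake on necroptosis, fell by less. It stood at 117.5, 118.9, 114.7 and 110.8 CPM in VC tumours and at 101.5, 102.4, 86.8 and 84.1 CPM in miR-21-KD tumours. The VC tumours lay close together, and all miR-21-KD tumours were below them. The log2 fold change was -0.30 (SE 0.09, edgeR adjusted p = 0.0272). This call was lost in edgeR without VC tumour 1 (-0.29, adjusted p = 0.0514), VC tumour 2 (-0.29, adjusted p = 0.0710), VC tumour 3 (-0.31, adjusted p = 0.0646), miR-21-KD tumour 3 (-0.27, adjusted p = 0.0759) or miR-21-KD tumour 4 (-0.25, adjusted p = 0.0737).

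The other initiators did not pass. Casp2 (12366, chr6:42264902-42282508), the PIDDosome caspase, was at 44.4, 56.7, 47.6 and 47.1 CPM in VC tumours and at 42.4, 42.2, 41.3 and 37.9 CPM in miR-21-KD tumours. Its groups did not overlap, but its log2 fold change of -0.26 (SE 0.10) had an edgeR adjusted p of 0.0595. Casp9 (12371, chr4:141793612-141815978), the apoptosome caspase, was at 34.1, 38.6, 32.2 and 35.1 CPM in VC tumours and at 30.8, 30.8, 32.7 and 31.7 CPM in miR-21-KD tumours. Its groups overlapped, and its log2 fold change was -0.15 (SE 0.09, edgeR adjusted p = 0.181). The log2 ratio of Casp9 to Casp8 differed by 0.16 between groups (exact two-sided permutation p = 0.229, adjusted 0.229, and exact sign-flip p = 0.375 within pairs).

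Casp6 (12368, chr3:129901415-129914112), an executioner that cuts lamin A, varied more between tumours. It was at 103.6, 74.0, 90.2 and 60.7 CPM in VC tumours and at 81.8, 115.2, 109.4 and 88.5 CPM in miR-21-KD tumours. The groups overlapped widely, with a log2 fold change of 0.27 (SE 0.18, edgeR adjusted p = 0.260) that ran from 0.14 to 0.40 as each tumour was left out.

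**Figure D3:**
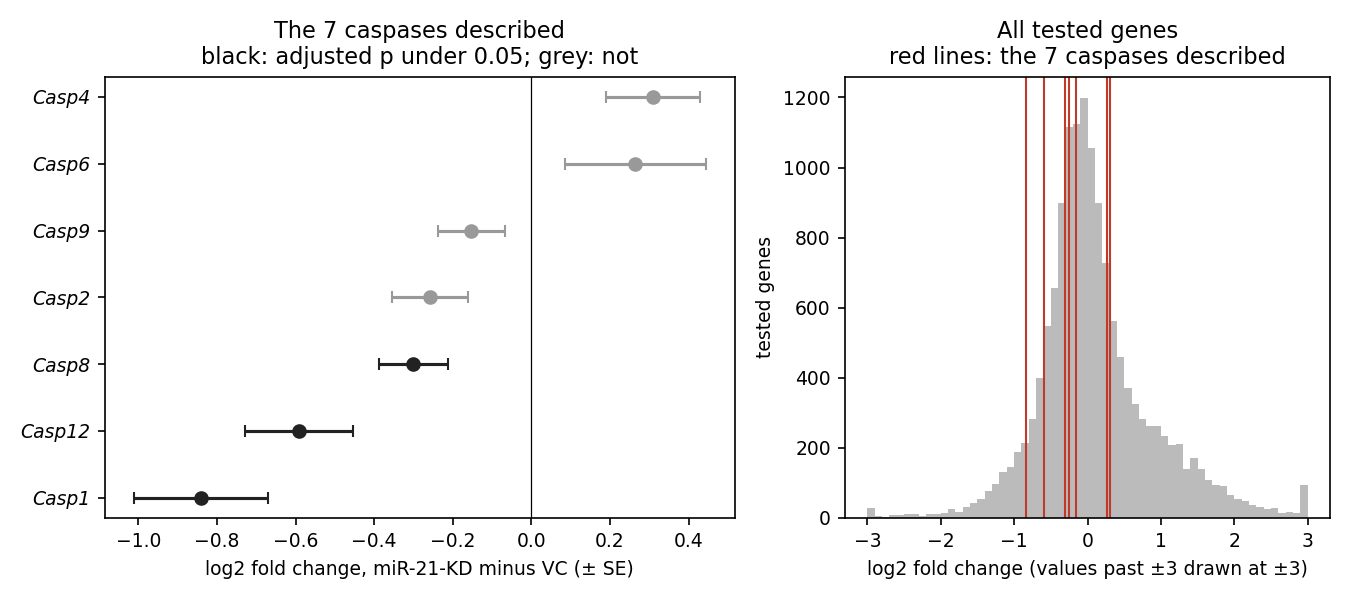
The left panel gives the log2 fold change (miR-21-KD minus VC, with SE) of the 7 caspases, black where the adjusted p was under 0.05. The right panel places the 7 caspases on a histogram of all 14382 tested genes, where they lie from -0.84 to 0.31.

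On the scale of CPM per kilobase of transcript, which allows levels of different genes to be compared, the order in VC tumours was Casp1 (68.8 ± 13.4), Casp6 (56.4 ± 12.8), Casp8 (44.7 ± 1.38), Casp12 (28.9 ± 2.89), Casp4 (26.9 ± 3.98), Casp2 (13.9 ± 1.52) and Casp9 (8.99 ± 0.693; SD, n = 4). Casp1, Casp6 and Casp8 overlapped as neighbours in that order, and so did Casp12 and Casp4. In miR-21-KD tumours Casp6 stood at 67.8 ± 11.03 per kilobase, above Casp1 at 38.4 ± 7.20, Casp8 at 36.3 ± 3.72 and Casp4 at 33.4 ± 2.68, which did not differ from each other beyond their spread. Casp12 (19.2 ± 3.61), Casp2 (11.6 ± 0.592) and Casp9 (8.08 ± 0.233) followed. The order depends on the gene length used, which the sources do not give for the counting. With the length of all exons of a gene, Casp6 came to 14.7 CPM per kilobase in VC tumours, below Casp8 at 39.9 and Casp12 at 19.97. On that length it came to 17.7 in miR-21-KD tumours, below Casp1 at 38.4 and Casp8 at 32.4.

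Among the genes around the inflammatory caspases, more rose than fell, and most did not pass the test. Of 18 tested inflammasome and pyroptosis genes, 6 rose (33.3%, beside 19.6% of all tested genes) and 2 fell (11.1%, beside 19.5%), with a median log2 fold change of 0.64. Gsdme, a gasdermin that forms membrane pores, fell from 8.51 ± 1.15 to 4.78 ± 0.471 CPM (mean ± SD, n = 4, as for the genes that follow; log2 fold change -0.83, SE 0.17, edgeR adjusted p = 0.00916). Ninj1, which ruptures the membrane of dying cells, rose from 89.4 ± 11.3 to 167.9 ± 40.0 CPM (0.91, SE 0.18, edgeR adjusted p = 0.00916), and the alarmin Il1a rose from 4.41 ± 2.63 to 15.9 ± 5.12 CPM (1.85, SE 0.40, edgeR adjusted p = 0.0111). Partners of Casp1 were looked up after their values were seen. Its substrate Il18 fell (log2 fold change -0.88, edgeR adjusted p = 0.0183), a call lost without VC tumour 3 (adjusted p = 0.0508) or miR-21-KD tumour 4 (adjusted p = 0.0512). Il1b, the other cytokine substrate, had a log2 fold change of 0.65 (edgeR adjusted p = 0.105, or 0.71 and 0.0339 with the replicate block), and the adaptor Pycard 0.76 (edgeR adjusted p = 0.0856, or 0.83 and 0.0271 with the replicate block). Without VC tumour 1, Il1b passed at 0.95 (edgeR adjusted p = 0.0221), and without VC tumour 4, Pycard passed at 1.16 (edgeR adjusted p = 0.00949). Gsdmd stood at 0.02 (SE 0.09, edgeR adjusted p = 0.848). The count of 6 became 11 with the block and 3 without VC tumour 2, VC tumour 3, miR-21-KD tumour 1 or miR-21-KD tumour 4, and the count of 2 became 1 without VC tumour 3 or miR-21-KD tumour 4. Reads of the near-identical Naip paralogs in this list could have been split between them.

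Upstream of Casp8, 7 of 14 death receptor route genes rose (50%, beside 19.6% of all tested genes) and 0 fell in edgeR, beside 19.5% (2 lower at an unadjusted p under 0.05, and 0 by DESeq2), with a median log2 fold change of 0.26. The receptor Fas rose from 14.1 ± 3.45 to 28.6 ± 0.593 CPM (1.02, SE 0.17, edgeR adjusted p = 0.00632). The kinase Ripk1, which turns on either survival or necroptosis, rose from 71.1 ± 5.98 to 99.0 ± 9.61 CPM (0.48, SE 0.10, edgeR adjusted p = 0.00931), and the ligand Tnf rose from 4.71 ± 1.93 to 10.9 ± 2.001 CPM (1.20, SE 0.29, edgeR adjusted p = 0.0147). The adaptor Fadd, looked up after its value was seen, had a log2 fold change of -0.18 (edgeR adjusted p = 0.132). The 7 became 4 without VC tumour 2, miR-21-KD tumour 1, miR-21-KD tumour 3 or miR-21-KD tumour 4 and 3 without VC tumour 3, and 1 gene was lower by limma-voom, 3 were lower by limma-voom with quality weights, and 1 was lower without VC tumour 4, miR-21-KD tumour 1 or miR-21-KD tumour 2.

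Among 8 apoptosome and PIDDosome genes, 1 rose and 1 fell (12.5% each, beside 19.6% and 19.5% of all tested genes), with a median log2 fold change of -0.05. Apaf1, the scaffold for Casp9, rose from 60.8 ± 3.51 to 78.2 ± 8.71 CPM (0.36, SE 0.10, edgeR adjusted p = 0.0190), a call lost without VC tumour 2 (adjusted p = 0.0569) or VC tumour 3 (adjusted p = 0.0632). Aifm1, a mitochondrial flavoprotein, fell from 57.9 ± 6.58 to 39.4 ± 3.53 CPM (-0.56, SE 0.11, edgeR adjusted p = 0.00833). Cradd, the adaptor of the PIDDosome, was at 6.07 ± 1.09 and 8.27 ± 0.444 CPM (0.45, SE 0.17, edgeR adjusted p = 0.0640). It passed in 5 of 18 alternative fits, among them DESeq2 (0.47, DESeq2 adjusted p = 0.0266) and edgeR without VC tumour 4 (0.56, adjusted p = 0.0312). The count of genes that fell became 2 with the replicate block and without miR-21-KD tumour 2.

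Of 6 caspase inhibitors and their regulators, 2 rose and 2 fell (33.3% each, beside 19.6% and 19.5% of all tested genes). Birc5 (survivin), which is also a mitotic protein, fell from 113 ± 12.6 to 43.6 ± 20.7 CPM (-1.38, SE 0.28, edgeR adjusted p = 0.00988), while Birc3 rose from 61.2 ± 10.2 to 90.6 ± 9.28 CPM (0.57, SE 0.13, edgeR adjusted p = 0.0124). Xaf1, an antagonist of XIAP, fell by 0.55 on the log2 scale (SE 0.17, edgeR adjusted p = 0.0354), but not with the replicate block (-0.53, edgeR adjusted p = 0.0621). The Xaf1 call was also lost without any of VC tumours 2, 3 and 4 and miR-21-KD tumours 1, 3 and 4, at adjusted p from 0.0555 to 0.0951, and the count of inhibitors that rose became 1 without VC tumour 1, 2 or 3 or miR-21-KD tumour 1 or 4.

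Among 8 caspase substrates, 3 fell (37.5%, beside 19.5% of all tested genes) and 1 rose (12.5%, beside 19.6%). Parp1, a DNA repair enzyme, fell from 119 ± 12.9 to 82.2 ± 12.2 CPM (-0.53, SE 0.12, edgeR adjusted p = 0.0135). The nuclear lamin Lmnb1 fell by 0.50 on the log2 scale (SE 0.13, edgeR adjusted p = 0.0203), and Acin1, named for its part in chromatin condensation, fell by 0.34 (SE 0.09, edgeR adjusted p = 0.0233). The Lmnb1 call was lost without VC tumour 2 (adjusted p = 0.0512), VC tumour 3 (0.0525) or miR-21-KD tumour 4 (0.0564), and that of Acin1 without VC tumour 2, VC tumour 3 or miR-21-KD tumour 1, 3 or 4, at adjusted p from 0.0521 to 0.0676. The 3 became 1 without VC tumour 2, VC tumour 3 or miR-21-KD tumour 4, and the 1 that rose became 0 to 2 as each tumour was left out.

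**Figure D4:**
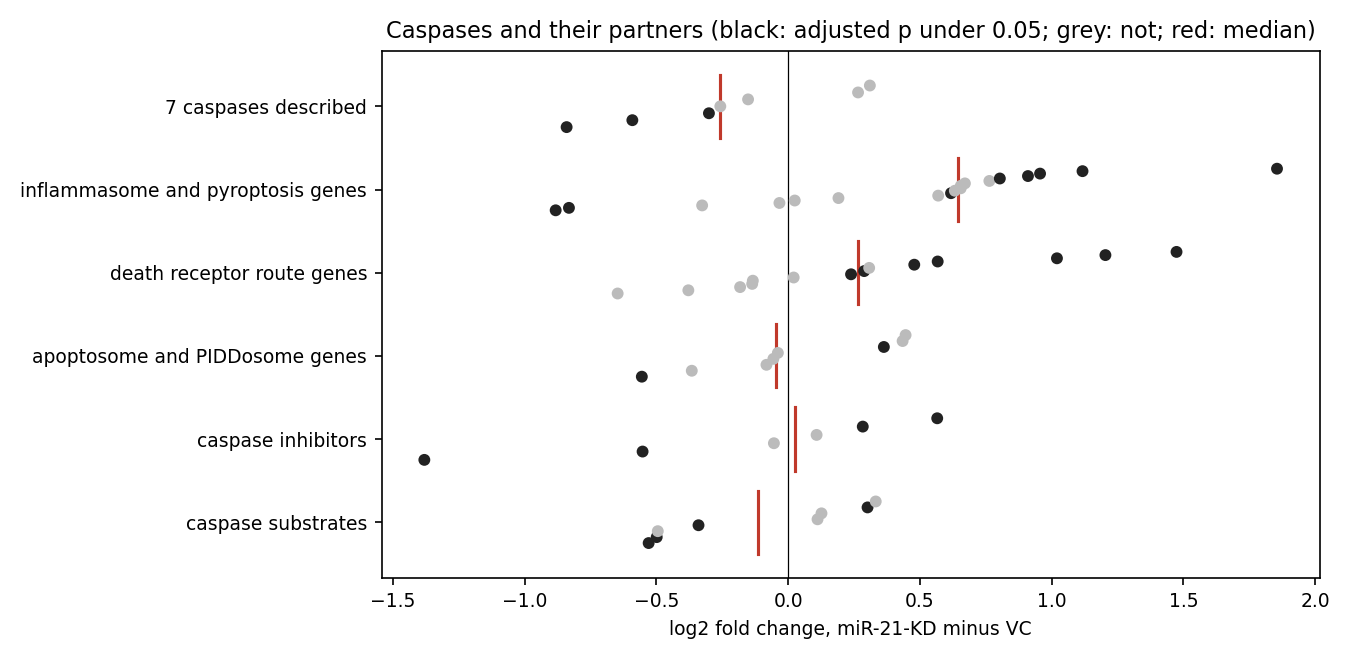
Log2 fold change (miR-21-KD minus VC) of each tested gene in 6 gene groups, black where the adjusted p was under 0.05 and grey where not, with each list's median in red. The median of the 7 caspases is -0.26 and that of the inflammasome and pyroptosis genes 0.64.

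Markers of several cell types differed between the groups, but not those of all. In edgeR, 0 of 6 neutrophil and 0 of 4 B cell markers passed in either direction, and of 5 endothelial markers 1 rose (20%) and 0 fell. These stand beside 19.6% of all tested genes called higher and 19.5% lower. As each tumour was left out, the risers ran from 0 to 2 for neutrophils, 0 to 1 for B cells and 0 to 2 for endothelium. Epithelial markers were present in every tumour of this labelled mammary carcinoma, and of 7 of them 5 rose (71.4%, beside 19.6% of all tested genes) and 1 (14.3%, beside 19.5%), Krt18, fell (log2 fold change -1.15, edgeR adjusted p = 0.0374). The 5 became 3 without VC tumour 2 or 3. Krt18 did not pass without VC tumours 1, 2 or 3 or miR-21-KD tumours 3 or 4 (adjusted p 0.0600 to 0.0941), nor with no filter on low counts. Krt8 stood at -0.88 (edgeR adjusted p = 0.0870). It passed with DESeq2 (-0.87, DESeq2 adjusted p = 0.0405), with the block (edgeR adjusted p = 0.0413) and without miR-21-KD tumour 2 (-1.13, edgeR adjusted p = 0.0432). Krt18 and Krt8 had the highest VC means of the 7, at 1022 and 808 CPM. The summed epithelial level overlapped between groups, at 1290 to 2222 CPM in VC and 1034 to 1949 CPM in miR-21-KD tumours. The pan-leukocyte gene Ptprc rose, from a range of 132 to 280 CPM to one of 320 to 482 CPM, and was not called without VC tumour 3. Of 12 macrophage and monocyte markers 10 rose (83.3%, beside 19.6% of all tested genes, and 5 without VC tumour 3), with a summed level of 3793 to 5846 CPM over the VC tumours and 6993 to 11821 CPM over the miR-21-KD tumours, and none of these markers was at 0. Among T cell markers 6 of 9 rose (66.7%, beside 19.6%), which became 1 without VC tumour 3 and 2 without miR-21-KD tumour 1 or 4. Of 7 fibroblast markers 5 rose (71.4%, beside 19.6%, and 2 without VC tumour 3, 3 without VC tumour 2, miR-21-KD tumour 1 or miR-21-KD tumour 4).

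Set against that summed macrophage level, Casp1 came to 14.8, 21.7, 27.0 and 21.8 CPM per 1000 marker CPM in VC tumours and to 4.42, 10.5, 4.77 and 5.00 in miR-21-KD tumours. Within the miR-21-KD group the tumour with the least macrophage signal, tumour 2, had the most Casp1, while within the VC group the tumour with the most macrophage signal, tumour 4, had the most Casp1. Since the marker sum itself was higher in every miR-21-KD tumour, a gene that did not rise as much gets a lower value on this scale, and the scale is no test of a caspase. Casp4 came to 8.43, 6.61, 9.66 and 7.16 per 1000 in VC tumours and to 4.50, 6.83, 4.03 and 4.48 in miR-21-KD tumours. Macrophage markers thus rose while these caspases fell or did not pass, and the part of cell makeup in these values was not tested.

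**Figure D5:**
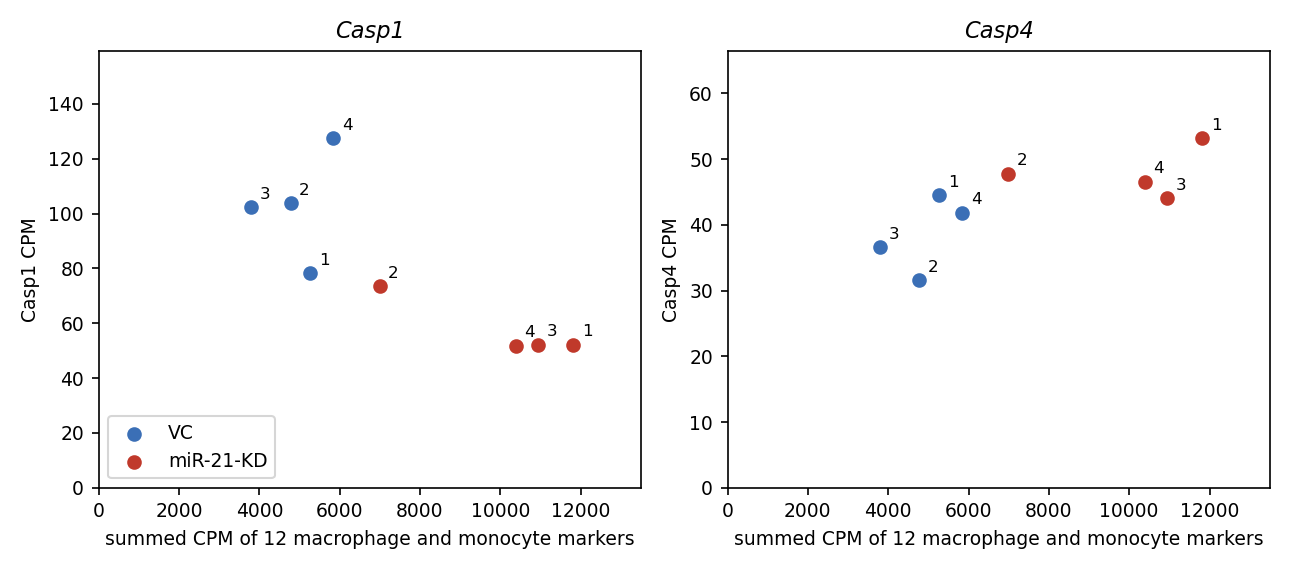
CPM of Casp1 (left) and Casp4 (right) against the summed CPM of 12 macrophage and monocyte markers, with a point for each tumour labelled by its replicate number. The miR-21-KD tumours have more marker signal, with less Casp1 than any VC tumour.

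The genes whose profiles over the 8 tumours were most like those of the 3 caspases that fell were found by the root mean square (RMS) difference of centred log2 CPM. For Casp1 they were Nmi (0.08), Ahcy (0.10) and Zfp580 (0.11), where the median gene differed by 0.51. For Casp12 they were Thoc3 (0.05), Ftsj3 (0.07) and Zfp64 (0.07), beside a median of 0.40, and for Casp8 Tut4 (0.03), Rbm6 (0.04) and Ube4b (0.04), beside 0.30. The profiles include the group difference, so the nearest genes share much of the caspase's fold change by construction. A flat profile would lie 0.48 from Casp1, 0.35 from Casp12 and 0.18 from Casp8. Nmi is an interferon-inducible protein and Ahcy an enzyme of the methionine cycle, given as background only.

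The libraries held 12134849 to 13592695 counts in VC and 12550898 to 12783800 in miR-21-KD tumours, so that a count of 0 allows up to 0.221 to 0.247 CPM, which covers counting error only. The precursor gene Mir21a had 0 counts in all 8 tumours, and since the vector acts on the mature strand, this checks nothing about the knockdown. Casp9 shares 1025 bases with Cela2a, which had at most 1 count in any tumour, and Casp6 shares bases with a pair of long non-coding RNA genes not in the count table. Whether strand was used in counting is not given in the sources used here.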

How the data were processed

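Whole tumours (4 VC, 4 miR-21-KD) were sequenced, and the deposited table holds unnormalised counts, 1 row for each Entrez gene, and the authors' processing notes name Subread, featureCounts, edgeR, limma and mm10; versions and strand are not given in the sources used here. Symbols were matched for 25275 of 27179 identifiers. The tumours are separate samples, and their counts differed by 12.6 to 70.7 chi-square units per degree of freedom in the 12 within-group pairs. The caspases and gene lists were chosen with earlier results of these data known.

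Genes passing filterByExpr (minimum count 10, minimum total 15) numbered 14382 and held 99.9% of counts. They were tested with edgeR 4.0.16 (R 4.3.3) by TMM scaling and the quasi-likelihood test, miR-21-KD against VC, adjusted p under 0.05. Log2 CPM used a prior count of 2. Ratios were compared by exact two-sided permutation. The same replicate number deviated together between groups (correlations 0.272, 0.421, 0.175 and 0.376). Unlike numbers had a mean correlation of -0.105, which centring within each group pulls down when that of like numbers is positive. Pairing by number was therefore tried as an alternative (a replicate block, and exact sign flips for ratios), although the labels give no shared animal or day. The p-values given are unpaired unless the block or the pairs are named.

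Named were the 7 caspases, the 3 genes of each list (inflammasome and pyroptosis, death receptor route, apoptosome and PIDDosome, inhibitors, substrates) with the smallest adjusted p, and the 3 nearest profiles of each caspase that passed, among genes averaging at least 1 log2 CPM. The rule also covered further genes that are not reported here. Other named genes were chosen after their values were seen. Marker lists covered leukocytes, macrophages and monocytes, neutrophils, T, NK, dendritic and B cells, epithelium, fibroblasts, endothelium, and adipocytes and muscle. Promoters and the mature miRNA came from RefSeq (GRCm38.p6), transcripts from GENCODE M21; all 7 caspases matched. Scripts were tested on simulated data. Alternatives were DESeq2 1.42.0, limma 3.58.1 voom with and without quality weights, library size alone, upper-quartile scaling, other filters, a replicate block, a test above 1.5-fold, a prior count of 0.5 and leaving out each tumour.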

Additional observations from a re-analysis of the deposited data

Results flagged for a closer look

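In each group of 4 tumours, the tumour farthest from the others was compared with Dixon's critical value for 4 values, over 44 groups (22 genes in each condition), and chance gives such a value in about 1 of 20 groups. Casp1 stood apart in miR-21-KD tumour 2, at 73.7 CPM beside 51.9 to 52.2 CPM in the other 3. In VC tumour 4 Ninj1 was at 106 CPM beside 82.6 to 86.1 CPM, and Il1a at 8.34 CPM beside 2.73 to 3.31 CPM. Birc3 stood apart in miR-21-KD tumour 1, at 104.5 CPM beside 85.8 to 86.2 CPM.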

How the results depend on the processing

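Direction held for all 7 caspases under all 18 alternative fits. Casp1 passed in 17 of them, Casp12 in 16, Casp8 in 11, Casp4 in 5 and Casp2 in 1. Tested for a change above 1.5-fold, 542 genes passed in either direction and 0 of the caspases passed as lower, with Casp1 at -0.84 (adjusted p = 0.171), Casp8 at -0.30 (1.00) and Casp12 at -0.59 (0.734), since that test asks for a larger change. One caspase, Casp4, passed as higher with DESeq2 (0.33), at least 10 counts in every tumour (0.36), voom quality weights (0.33) and the replicate block (0.32), which gave 1 in each; with quality weights Casp2 also passed (-0.29). The block changed no other call of a caspase. Gsdmd, not called, turned to -0.0080 with no filter and -0.041 with quality weights, and ranged from -0.019 (without VC tumour 2) to 0.066 when each tumour was left out. Leaving out each tumour gave 2936 to 6840 genes, 2 to 3 caspases lower and 0 to 1 higher, Casp8 from -0.35 to -0.25 and Casp4 from 0.22 to 0.39. Without both tumours numbered 4, a choice made after the data were seen because both held the most B cell marker signal, 2896 genes passed and 1 caspase (Casp1) was lower, with Casp8 at -0.27 (0.0839) and Casp12 at -0.48 (0.0653), on fewer samples. Other causes were not tested. The ratios kept their direction throughout. Leaving out each tumour, the Casp4 to Casp1 difference ran from 1.05 to 1.35 (exact permutation p 0.0286 to 0.0571) and that of Casp12 to Casp1 from 0.16 to 0.29 (0.0286 to 0.114), unadjusted; pairing (smallest p 0.125) could not pass. Depth was not varied.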

Other observations

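Other cell type markers were also measured. Neutrophil markers summed to 294 to 798 CPM in VC and 384 to 675 CPM in miR-21-KD tumours. NK cell markers summed to 3.51 to 15.4 CPM in VC and 20.5 to 37.2 CPM in miR-21-KD tumours. Dendritic cell markers summed to 54.8 to 175 CPM in VC and 182 to 342 CPM in miR-21-KD tumours. Endothelial markers summed to 349 to 617 CPM in VC and 532 to 751 CPM in miR-21-KD tumours. B cell markers summed to 145 CPM in VC tumour 4 and 63.7 CPM in miR-21-KD tumour 4, beside 1.76 to 13.2 CPM in the other 6. Adipocyte and muscle markers summed to 6.94 to 35.1 CPM in VC and 48.1 to 191.8 CPM in miR-21-KD tumours.

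Per 1000 CPM of macrophage markers, a sum that was itself higher in every miR-21-KD tumour and so lowers these values for any gene that did not rise as much, Casp12 came to 12.5, 17.2, 20.1 and 14.1 in VC tumours and to 3.87, 9.22, 4.60 and 4.13 in miR-21-KD tumours. Casp8 came to 22.3, 24.9, 30.2 and 18.9 in VC tumours and to 8.59, 14.6, 7.93 and 8.09 in miR-21-KD tumours.

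The promoter windows of Casp2, Casp6 and Casp9 held 26, 16 and 28 CpG pairs, and those of Casp1, Casp4, Casp8 and Casp12 held 3, 5, 5 and 3, beside a median of 7 over 27025 promoters. The Casp8 window lies downstream of the outermost gene start given for Casp8.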
